A study of Mus musculus with 3 samples.

Results

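The cells described here are the LLC1 tumour cells that were richest in transcripts of Igfbp4, Sema3a, Fgfr1 and Uaca. Each cell received a score, the sum of the UMIs (unique molecular identifiers, 1 per captured transcript) of these 4 genes per 10000 UMIs of the cell, and the members are the top 10% of that score over the gated tumour cells of all libraries pooled. The gate kept cells with at least 300 genes, at most 15% mitochondrial UMIs, at least 5000 UMIs, no Ptprc UMI, at least 1 UMI of Krt8, Krt18 or Hmga2 and fewer than 10 UMIs of Lum, Dcn and Mmp3 per 10000. Of 28943 barcodes, 13137 passed the gate and 1314 were members. The score is continuous, so the members are a range of a scale and not a separate type of cell: the lowest member scored 21.4, 207 members and 259 other gated cells lay within 2 of that limit, and the median of all gated cells was 8.48.

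LLC1 is a Lewis lung carcinoma line of mouse origin, and tumours were grown from 1000000 injected cells in the tibia of 8-week-old hosts and taken on day 14. There were 3 groups of hosts. Mfn2 was deleted in the first (DMP1-Cre Mfn2-/-), Rhot1 in the next (DMP1-Cre Rhot1-/-), and the last was wild-type, with no Cre named. Droplet 3' RNA sequencing gave 1 library per group (called the Mfn2, Rhot1 and WT libraries), each a mixture of tumours of 3 mice with no map from cells to mice. Dmp1-Cre acts in osteocytes, the cells embedded in bone, so the injected tumour cells are not the cells that carry the deletion; Mfn2 encodes a GTPase of mitochondrial fusion and Rhot1 encodes Miro1, which ties mitochondria to the transport machinery. Carrying Cre and losing the gene cannot be told apart in these groups, and no difference between genotypes has a replicate.

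Igfbp4 is a secreted protein that binds insulin-like growth factors and keeps them from their receptor. Sema3a is a secreted semaphorin that repels axons through neuropilin and plexin receptors, and in bone it is known as a factor of the osteoblast lineage that favours bone formation. Fgfr1 is a receptor tyrosine kinase for fibroblast growth factors, and Uaca (nucling) is a coiled-coil protein linked to apoptosis. In the mouse genome (GRCm38) Igfbp4 lies on chromosome 11 (99041244 to 99054392), Sema3a on chromosome 5 (13125414 to 13602565), Fgfr1 on chromosome 8 (25513654 to 25575718) and Uaca on chromosome 9 (60794542 to 60880370), all protein-coding and on the forward strand.

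Values of the score genes chose the members and are given as a description. Levels are UMIs per 1000000 UMIs of the summed cells (CPM). Igfbp4 stood at 1978, 2134 and 2515 CPM in members of the Mfn2, Rhot1 and WT libraries, against 532, 471 and 489 CPM in the other gated cells of the same libraries. Sema3a stood at 204, 240 and 291 CPM in members and 55.4, 52.8 and 50.6 CPM in other gated cells. Fgfr1 stood at 341, 460 and 525 CPM in members and 155, 152 and 179 CPM in other gated cells. All 4 genes were lowest in members of the Mfn2 library, and Uaca had 305, 454 and 440 CPM in members and 146, 178 and 124 CPM in other gated cells. Igfbp4 gave 67.0% of the score UMIs of the members and was the leading score gene in 1245 of them.

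More of the 4 genes were detected per cell in members than in other gated cells, which the choice of members by their sum favours. When each cell was thinned to 5000 UMIs, 3 or 4 of the genes were detected in 85.5% of members (75.0%, 84.5% and 91.4% in the Mfn2, Rhot1 and WT libraries) and in 31.9% of other gated cells. Without thinning, all 4 were detected in 84.3% of members and 35.6% of other gated cells. Because the sum of the genes sets membership, each gene was also measured in cells chosen by the sum of the other 3. In cells chosen without it, Sema3a had 174, 213 and 274 CPM in the Mfn2, Rhot1 and WT libraries, against 57.0, 53.8 and 54.2 CPM in the remaining cells, a log2 fold change of 2.05 ± 0.12 (SE, 3 libraries). The same measure gave 1.33 ± 0.16 for Igfbp4, 1.26 ± 0.12 for Fgfr1 and 1.16 ± 0.16 for Uaca. The members were chosen with earlier results of these data known, so these values describe the set of 4 genes and do not test it. Summed over cells, each of the 4 genes was thus higher in the cells selected by the other 3 in each library, and the 3 summed values of the selected cells lay above the 3 of the remaining cells.

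In cells with 3 or more Ptprc UMIs, which mark leukocytes, Igfbp4 had 391, 281 and 433 CPM in the Mfn2, Rhot1 and WT libraries at median depths of 6977, 7470 and 7800 UMIs, levels under those of the other gated cells and of members. Of these cells, 0.803%, 0.789% and 4.10% reached the score of the members. Scrublet, which marks likely doublets, marked 15.7%, 8.16% and 14.1% of them, and Krt8 was detected in 54.2%, 41.6% and 41.2%. The Igfbp4 level of these cells was not separated into free RNA, doublets with tumour cells and expression. The Igfbp4 level of the other gated cells was therefore not read as expression above background.

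The members made up a smaller share of gated tumour cells in both knockout hosts than in wild-type hosts. They were 332 of 4871 gated cells in the Mfn2 library (6.82%, 95% Clopper-Pearson interval 6.12 to 7.56), 343 of 4888 in the Rhot1 library (7.02%, 6.32 to 7.77) and 639 of 3378 in the WT library (18.9%, 17.6 to 20.3). The shares in the Mfn2 and Rhot1 libraries overlap within counting error and the WT share lies above both. The ratio to WT was 0.360 (0.318 to 0.408) for Mfn2 and 0.371 (0.328 to 0.420) for Rhot1, and both ratios rest on the same WT library. These intervals cover counting error only, and the spread between mice is not known.

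**Figure D1:**
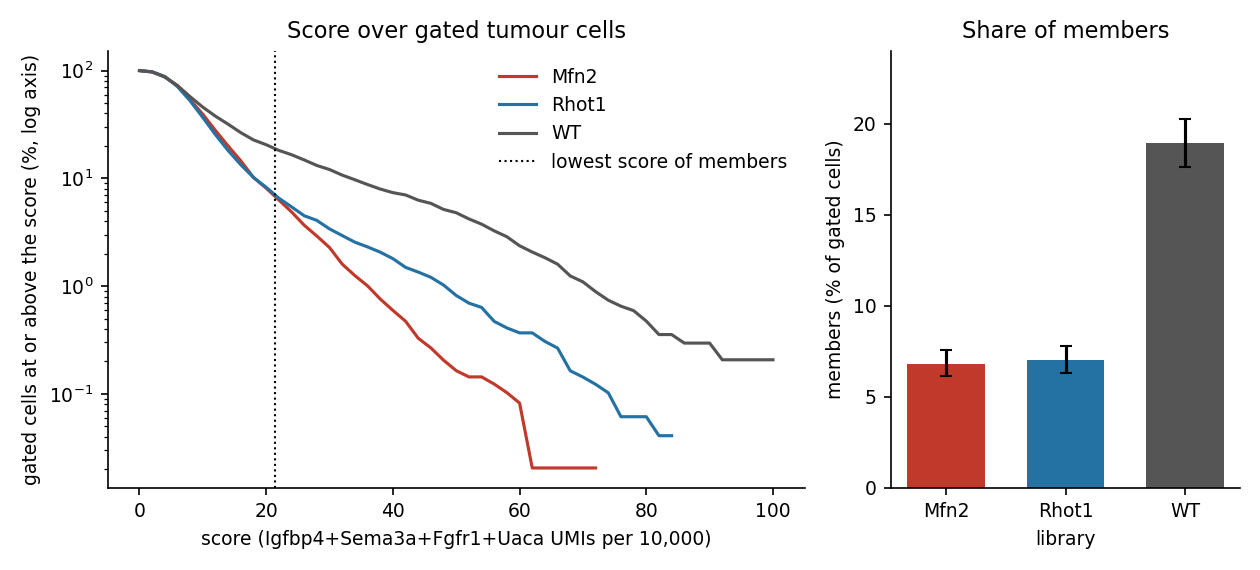
Left, percentage of gated cells (log axis) at or above each score (UMIs of the 4 score genes per 10000) in the Mfn2, Rhot1 and WT libraries, with the lowest score of the members dotted. Right, percentage of gated cells that were members, with 95% Clopper-Pearson intervals. The 3 curves run together at low scores and the WT curve lies above the others in the upper tail, with 18.9% members against 6.82% and 7.02%.

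The gap between libraries was small at the centre of the score and wider in its upper tail. The median score of all gated cells was 8.42, 8.28 and 9.16 in the Mfn2, Rhot1 and WT libraries. The 90th percentile was 18.2, 18.2 and 33.4, and the 99th was 35.9, 48.2 and 70.7. The farther up the scale the limit was set, the wider the gap: the ratio to WT was 0.584 and 0.546 for the Mfn2 and Rhot1 libraries at the top 20%, and 0.182 and 0.283 at the top 5%. Members were shallower than other gated cells, with median depths of 13034, 12771 and 11688 UMIs against 16062, 16885 and 18136 UMIs. With every cell thinned to 5000 UMIs the shares were 8.66%, 8.92% and 19.8%, and the ratios 0.437 and 0.450. All cells tied at the thinned limit of 11 UMIs were kept, which gave 1527 members in place of 1314, a looser limit.

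The tumour markers of the gate were present in members of every library. Krt8, an epithelial keratin of the LLC1 cells, had 727, 674 and 624 CPM in members of the Mfn2, Rhot1 and WT libraries and 689, 611 and 616 CPM in other gated cells. Hmga2, a chromatin protein of embryonic and tumour cells, had 612, 490 and 378 CPM in members and 605, 573 and 503 CPM in other gated cells, about level in the Mfn2 library and lower in members of the Rhot1 and WT libraries. Both genes belong to the gate, so their presence was required, and the levels are a description. Of 22 epithelial genes that the gate did not use, 10 had 0 UMIs in members of all 3 libraries, among them the adhesion proteins Epcam and Cdh1 and the keratins Krt19 and Krt5, where 3 counts would have been 0.607, 0.631 and 0.359 CPM. Others were present: the tight junction protein Tjp1 had 84.2, 91.0 and 87.2 CPM in members and 67.5, 71.3 and 60.4 CPM in other gated cells and passed the test described below as higher (log2 0.46), and the desmosomal Pkp2 had 12.6, 8.20 and 9.57 CPM in members and 21.2, 16.3 and 16.8 CPM in other gated cells and passed as lower (-0.78).

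Markers of other cell types moved in both directions, and their part in the results below was not tested. The summed level of 13 fibroblast markers was 1359, 1574 and 2145 CPM in members of the Mfn2, Rhot1 and WT libraries and 537, 523 and 644 CPM in other gated cells, most of it Col3a1 and Dcn. Of the fibroblast markers, 4 could be tested as described below, and all 4 were higher in members (median log2 1.72). Of all genes tested, 19.2% were higher and 18.6% lower. Pdgfrb, 1 of the 4, was under the 5 CPM filter in other gated cells and was tested only through its level in members. Lum, Dcn and Mmp3 belong to the gate and were not tested. Col1a1, the main collagen of fibroblasts and bone, had 0, 2 and 117 UMIs in members (14.0 CPM in the WT library), against 0.0873, 0.182 and 0.376 CPM in other gated cells, and Col1a2 had 1, 2 and 71 UMIs in members (8.49 CPM in the WT library, against 0.977 CPM in its other gated cells). Both were thus near 0 in members of the knockout hosts' libraries and above the other cells in WT members, and Cxcl12 and Lepr had no more than 2 UMIs in any library's members. The 12 macrophage markers went the other way (8 of 8 tested were lower), with 270, 269 and 299 CPM in members and 445, 492 and 459 CPM in other gated cells, against 20913, 25294 and 22725 CPM in cells with 3 or more Ptprc UMIs, while their median per cell was about level, at 2.05, 2.43 and 2.32 UMIs per 10000 in members and 2.11, 2.45 and 2.27 in other gated cells. Of 10 osteoblast and osteocyte genes, Bglap, Bglap2, Ibsp, Sost and Mepe had 0 UMIs in members of all 3 libraries, while the transcription factor Runx2 had 29.2, 24.2 and 29.9 CPM in members and 28.3, 26.8 and 25.2 CPM in other gated cells and the peptidase Phex had 8.10, 4.63 and 6.82 CPM in members and 7.59, 6.58 and 4.51 CPM in other gated cells. Scrublet, which marks likely doublets, marked 0.904%, 0.875% and 1.10% of members and 1.87%, 1.61% and 1.64% of other gated cells.

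To describe the rest of the transcriptome, UMIs were summed over members and over other gated cells of each library, and the 6 sums were compared with edgeR's quasi-likelihood test with library as a block. Genes were called at an adjusted p under 0.05 and a log2 fold change of at least 0.32 in size. Of 9709 genes tested, 1860 (19.2%) were higher and 1805 (18.6%) lower in members, 37.7% in all, so a list of genes is read below against these shares and against a median of 0.01 for all genes. Genes were tested at a mean of 5 CPM or more over the 6 sums, and 154 of the higher and 102 of the lower genes passed that filter only through the cells where they were high. Without the Rhot1 library the counts were 1212 higher and 1164 lower. The members are cells of the same libraries as the cells they are compared with, and the 3 libraries of different hosts serve as the replicates. Where values of members and other gated cells are said below not to overlap, this is a description. The share of all tested genes without overlap is not given, and genes that were not called could lack overlap too.

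Among called genes at 50 CPM or more in members or other gated cells, 5 of the 14 highest encode matrix proteins. Fbn1, which encodes fibrillin-1 of elastic microfibrils, had 26.5, 50.7 and 94.4 CPM in members of the Mfn2, Rhot1 and WT libraries, against 2.69, 4.53 and 13.7 CPM in other gated cells (log2 fold change 3.20 ± 0.14, SE; edgeR adjusted p = 7.97e-06). Fn1, fibronectin, had 49.8, 91.3 and 259.5 CPM in members and 16.2, 19.7 and 41.9 CPM in other gated cells (2.26 ± 0.16). For both genes the lowest member value lay above the highest value of other gated cells, and the WT library was the highest in both groups of cells. Col3a1, a fibrillar collagen, had 878, 1154 and 1681 CPM in members and 303, 310 and 430 CPM in other gated cells (1.86 ± 0.09). Dpt, a matrix protein that binds decorin and collagen, had 62.6, 101 and 109 CPM in members and 16.4, 18.2 and 23.4 CPM in other gated cells (2.28 ± 0.11). The last of these 5 was Col6a2, a chain of microfibrillar collagen VI (1.74 ± 0.13).

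A list of collagens and small leucine-rich proteoglycans, called the collagen list below, had 13 genes tested. These were collagen chains with Fbn1 and Sparc, and no small leucine-rich proteoglycan was among them. Of the 13, 11 rose and none fell in members, with a median log2 fold change of 1.06. Besides Fbn1, the list was led by Col5a2, a regulator of fibril thickness, at 14.98, 22.5 and 51.2 CPM in members and 2.51, 3.08 and 9.69 CPM in other gated cells (2.65 ± 0.13). The genes of the list that did not pass were Col7a1 (log2 0.24) and Col5a3 (0.01). Among 18 mesenchymal genes and factors of epithelial-mesenchymal transition, 10 rose and none fell (median 0.44), led by Fn1 and by Thbs2, a matricellular thrombospondin (1.62 ± 0.08), while Twist2 (-0.07) and the fibronectin receptor chain Itga5 (-0.09) did not pass. Of 14 contractile and actin genes none rose and 6 fell (median -0.25), with the actin cross-linker Flna at -0.50 and the tropomyosin Tpm4 at -0.49. Of 13 integrin and focal adhesion genes 5 rose, among them Itgb5 (1.29) and the caveolar protein Cav1 (1.06), and 1 fell, the laminin receptor chain Itga3 (-0.66).

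The other genes among the 14 highest have varied roles. Cp, ceruloplasmin, a copper-carrying ferroxidase, had 37.7, 105 and 138 CPM in members and 5.64, 5.66 and 21.1 CPM in other gated cells (3.28 ± 0.26). Clu, the secreted chaperone clusterin, had 107.5, 104.5 and 122 CPM in members and 27.9, 24.8 and 40.0 CPM in other gated cells (1.93 ± 0.10). Vegfd, a growth factor for lymphatic vessels, had 38.9, 62.7 and 60.8 CPM in members and 17.4, 17.2 and 15.8 CPM in other gated cells (1.74 ± 0.14). None of these overlapped between members and other gated cells. Txnip, an inhibitor of thioredoxin, Idh1, the cytosolic isocitrate dehydrogenase, the neighbouring membrane protein genes Tmem176a and Tmem176b, Itm2b and the calcium-binding S100a16 lay between 1.69 and 1.88, and edgeR adjusted p-values of the 14 highest genes ran up to 8.6e-05.

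**Figure D2:**
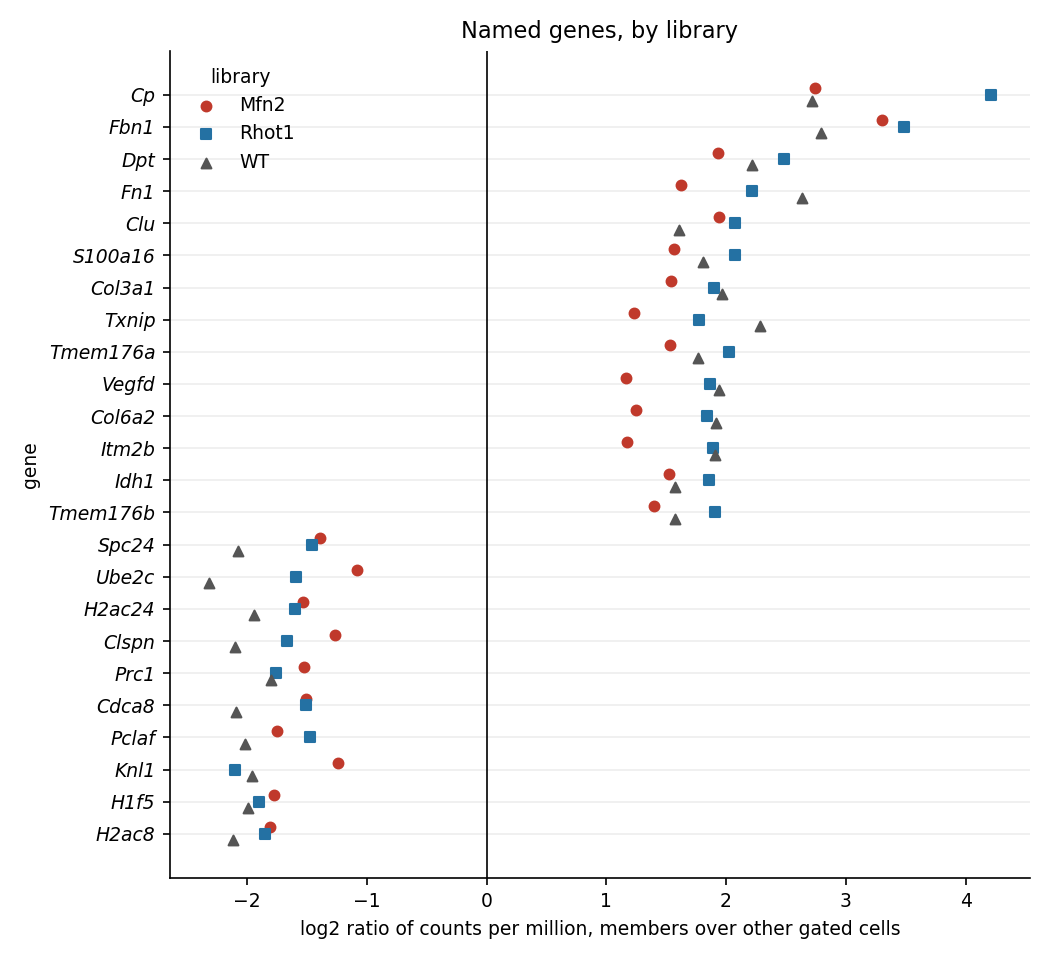
Log2 ratio of CPM, members over other gated cells, in the Mfn2, Rhot1 and WT libraries for the 14 highest and 10 lowest of the called genes at 50 CPM or more. Each point is 1 library, and all points of a gene lie on the same side of 0.

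The pathways of the score genes themselves moved only in part. Of 8 further genes of the insulin-like growth factor axis, 4 rose and none fell (median 0.44). Igfbp6, a binding protein that prefers IGF-II, had 180.4, 236 and 325 CPM in members and 107, 98.7 and 99.7 CPM in other gated cells (1.31 ± 0.15, edgeR adjusted p = 0.000248). Igfbp7, a secreted relative of the family, had 12.1, 25.2 and 59.1 CPM in members and 4.34, 6.94 and 16.1 CPM in other gated cells (1.84 ± 0.11), with overlap between the groups of cells across libraries but higher in members within each library. In the Mfn2 library the median shift of the list was smallest (0.02, against 0.59 and 0.61 in the Rhot1 and WT libraries). The receptor Igf1r did not pass (0.04 ± 0.10), nor did the RNA-binding Igf2bp2 (-0.14 ± 0.07).

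Among 14 semaphorins, plexins and neuropilins other than Sema3a, 8 rose and 1 fell (median 0.37). Sema3f, another secreted class 3 semaphorin, had 5.67, 10.7 and 13.0 CPM in members and 1.40, 1.85 and 2.82 CPM in other gated cells (2.33 ± 0.18), and the transmembrane Sema4c rose by 0.80 ± 0.08. Sema6b, also transmembrane, fell by 0.81 ± 0.13, with 13.4, 12.4 and 6.70 CPM in members and 21.3, 21.5 and 15.1 CPM in other gated cells. Sema4b did not pass (-0.17 ± 0.10). Sema3f was under the 5 CPM filter in other gated cells and was tested only because it was high in members, so its fold change is a description. The groups of cells did not overlap for Sema3f, Sema4c, Sema6b, Plxnd1, Plxna1 and Nrp2, which passed. Nor did they for Nrp1, Plxnb2 and Sema4b, which did not pass.

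Of 14 genes of the FGF pathway, 6 rose and 3 fell (median 0.27). The transcription factor Etv1, which acts downstream of FGF receptors, had 310, 277 and 235 CPM in members and 153, 138 and 102 CPM in other gated cells (1.13 ± 0.07, edgeR adjusted p = 2.01e-05), and the ligand Fgf7 had 30.4, 11.8 and 13.3 CPM in members and 10.5, 7.49 and 9.60 CPM in other gated cells (0.98 ± 0.20). The related factor Etv5 (-0.51 ± 0.14) and the phosphatase Dusp5 (-0.69 ± 0.13), both known as targets of ERK signalling, fell. The list thus held genes downstream of the same receptors in both directions. Of 17 genes of other receptor tyrosine kinases and their ligands, 5 rose and 5 fell. The receptors Pdgfrb (1.58 ± 0.26) and Egfr (1.47 ± 0.27) were highest, and Epha2 (-1.02 ± 0.12) and the EGFR ligand Hbegf (-1.21 ± 0.17) lowest. Pdgfrb and Egfr were under 5 CPM in other gated cells and were tested only through their level in members.

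Cell-cycle genes were lower in members. All 24 G2/M genes tested fell (median -1.48), and 23 of 24 S-phase genes fell (median -0.93). Ube2c, the ubiquitin-conjugating enzyme of the anaphase-promoting complex, had 101, 77.4 and 49.2 CPM in members and 213, 233 and 245 CPM in other gated cells (-1.60 ± 0.19, edgeR adjusted p = 0.000265). Aurkb, a kinase of the chromosomal passenger complex, had 17.6, 12.2 and 10.3 CPM in members and 39.1, 46.4 and 47.7 CPM in other gated cells (-1.71 ± 0.17). Rrm2, the ribonucleotide reductase subunit of S phase, had 55.7, 43.7 and 35.2 CPM in members and 122, 127 and 149.6 CPM in other gated cells (-1.53 ± 0.15). No library's members reached the level of any library's other cells for these genes, and the Mcm6 helicase subunit was the S-phase gene that did not pass (-0.26 ± 0.10).

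Among called genes at 50 CPM or more, the 10 lowest were the kinetochore genes Knl1 and Spc24, the passenger subunit Cdca8, the spindle protein Prc1, the replication factors Pclaf and Clspn, Ube2c and the histones H1f5, H2ac8 and H2ac24, between -1.60 and -1.88. The H2A histone genes are near copies of one another, so the split of UMIs between H2ac8 and H2ac24 is uncertain. In single cells, 49.7%, 63.0% and 73.9% of members had fewer than 10 UMIs of S and G2/M genes per 10000, against 20.3%, 13.8% and 18.1% of other gated cells. Of members, 2.74% were in the top 10% of gated cells for G2/M genes and 2.51% in the top 10% for S-phase genes, against 10.8% of other gated cells in both.

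Inhibitors of the cycle did not move one way: of 18 such genes and p53 targets 6 rose and 4 fell (median 0.11). Cdkn2c, an inhibitor of the kinases that start the cycle, had 174, 181 and 221 CPM in members and 84.1, 74.0 and 60.6 CPM in other gated cells (1.47 ± 0.14, edgeR adjusted p = 0.0001). Cdkn1a, the p53-responsive inhibitor p21, had 51.0, 24.4 and 18.1 CPM in members and 75.6, 68.0 and 50.1 CPM in other gated cells (-1.07 ± 0.16). Gadd45a, a growth-arrest gene, rose (1.20 ± 0.21), with 47.4, 106 and 150.2 CPM in members and 40.0, 37.7 and 52.6 CPM in other gated cells. In the Mfn2 library the Gadd45a values of the 2 groups of cells lay close together.

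Genes of cell growth were lower as well. Of 20 MYC targets and ribosome biogenesis genes 19 fell (median -0.68), and the exception, Odc1, the first enzyme of polyamine synthesis, had 3720, 1890 and 1006 CPM in members and 3156, 2921 and 1682 CPM in other gated cells. Srm, the spermidine synthase, had 183, 136.5 and 111 CPM in members and 280.3, 277 and 292 CPM in other gated cells (-0.95 ± 0.12), and the ribosomal RNA modifier Dkc1 fell by 0.88 ± 0.10. Odc1 was above the other cells in members of the Mfn2 library and below them in the other 2 libraries. Of 18 cholesterol synthesis genes 12 fell and none rose (median -0.45), with the late-step reductase Dhcr7 at -0.78 ± 0.13. Of 15 glycolysis genes 4 fell and none rose, with Pgk1 (-0.44 ± 0.09) and Eno1 (-0.44 ± 0.08) lowest, and of 17 hypoxia genes 2 rose and 1 fell (median 0.02). Of 27 nuclear genes of the respiratory chain 1 rose and 1 fell (median 0.00).

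Because members cycled less, the fit was repeated on low-cycling cells only (fewer than 10 UMIs of S and G2/M genes per 10000), which left 165, 216 and 472 members of the Mfn2, Rhot1 and WT libraries. This fit was chosen after the data were seen, and since it selects on S and G2/M genes, it shows nothing about these genes themselves. Of 9590 genes tested it called 1290 higher (13.5%) and 1334 lower (13.9%), and 1929 genes kept their call and direction. Another 13 genes were called in both fits with opposite directions. The matrix genes stayed higher, with 10 of 13 genes of the collagen list up and 1 down (median 0.98), Fbn1 at 2.90 and Fn1 at 1.61. MYC targets and ribosome biogenesis genes stayed lower (20 of 20, median -0.69), as did cholesterol genes (12 of 18, median -0.53), and MHC class I genes stayed higher (12 of 16, median 0.50), while 11 of 18 interferon-stimulated genes were higher and 1 was lower (median 0.55). Semaphorins (3 up and 2 down, median 0.09) and mesenchymal genes (7 up and 3 down, median 0.11) had counts nearer these shares, and hypoxia genes, level in the fit of all gated cells, had 12 of 17 lower (median -0.64). Leukocyte markers were further down in members here than over all gated cells. All 8 macrophage markers tested were lower (median -2.08, against -0.72), as were all 4 neutrophil markers (median -1.47, against -0.32). The part of such leukocyte RNA in the shifts of other lists in this fit was not tested.

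**Figure D3:**
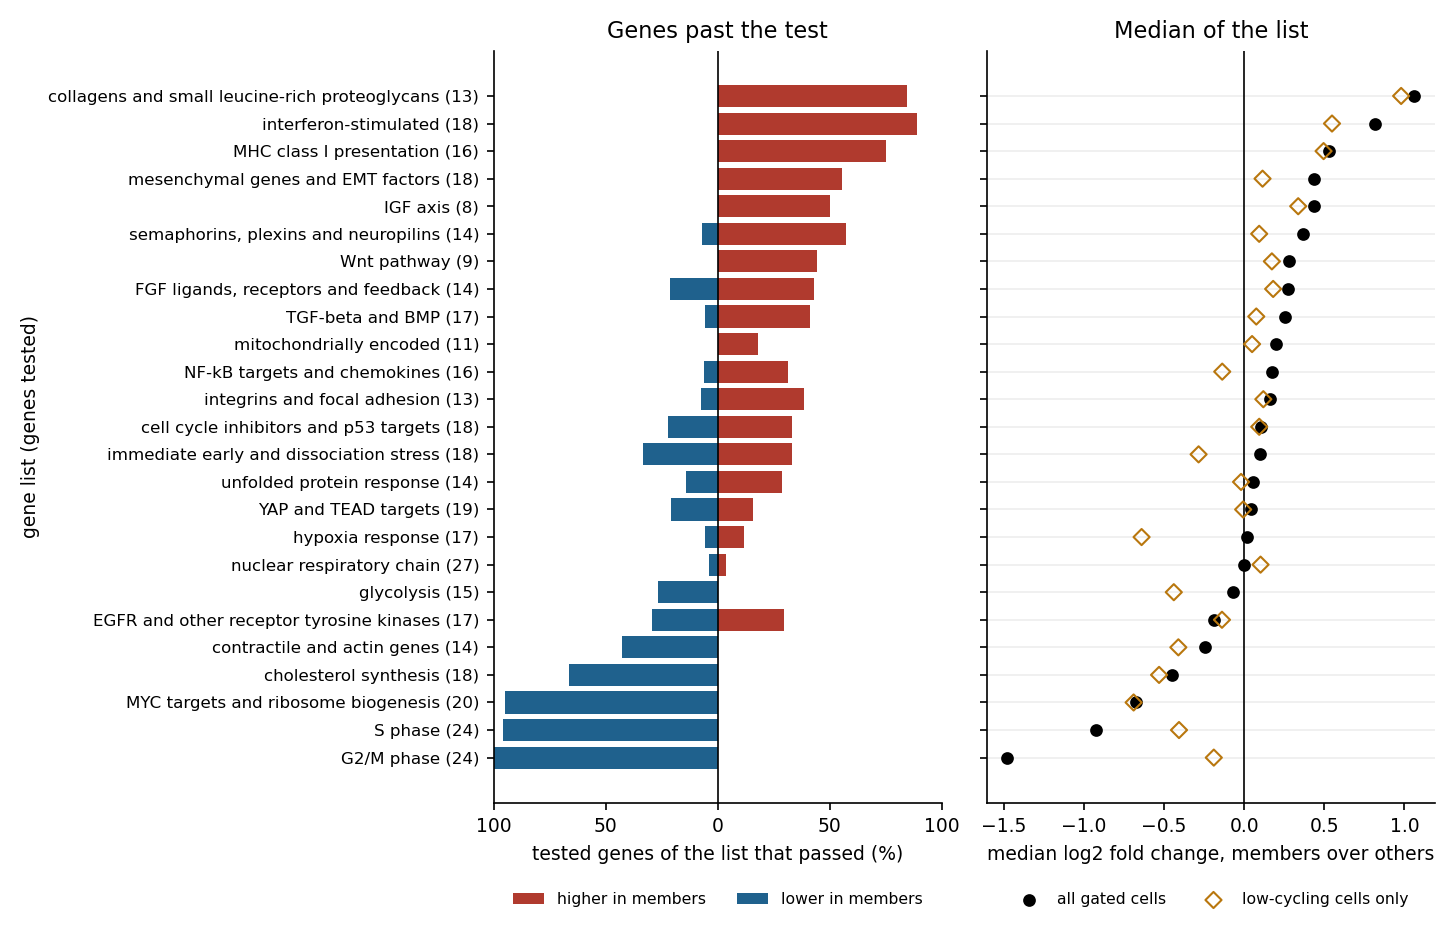
Left, percentage of the tested genes of each list that passed the test higher (right of 0) or lower (left of 0) in members. Right, median log2 fold change of each list, members over other gated cells, over all gated cells (filled circles) and over low-cycling cells only (open diamonds). Of the lists drawn, G2/M and S phase are lowest over all gated cells (-1.48 and -0.93), and collagens are highest of the lists drawn in both fits (1.06 and 0.98). Cell type marker lists are not drawn.

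Interferon-stimulated genes rose in members. Of 18 tested, 16 rose and none fell (median 0.82). Oasl2, an antiviral oligoadenylate synthetase-like protein, had 16.4, 33.2 and 30.4 CPM in members and 6.04, 8.41 and 10.1 CPM in other gated cells (1.75 ± 0.13, edgeR adjusted p = 3.94e-05). Ifit1, which binds foreign RNA caps, had 1.42, 19.6 and 19.4 CPM in members and 2.94, 5.62 and 4.13 CPM in other gated cells (1.63 ± 0.38). Ifit1 and Oas1a, of the 16, were under 5 CPM in other gated cells and tested through their level in members. Ifit1 was higher in members of the Rhot1 and WT libraries and lower in members of the Mfn2 library. The chemokine Cxcl10 (0.43 ± 0.20) and Oasl1 (-0.03 ± 0.13) did not pass, and 31.3% to 37.6% of the Cxcl10 UMIs of a library's members came from 1 cell in each of the 3 libraries.

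The median of the interferon list was 0.31, 1.00 and 0.90 in the Mfn2, Rhot1 and WT libraries, so the Mfn2 library showed the smallest shift. By single cells, 19.0%, 32.4% and 35.2% of members were in the top 10% of gated cells for interferon-stimulated genes, against 5.95%, 7.75% and 10.7% of other gated cells. Of 16 genes of MHC class I presentation, 12 rose and none fell (median 0.53). The immunoproteasome subunit Psmb8 had 143, 186 and 224 CPM in members and 93.1, 92.6 and 121 CPM in other gated cells (0.90 ± 0.09), and Psmb9 rose by 0.96 ± 0.11. The endoplasmic reticulum chaperones of the list, Calr (0.17) and Canx (0.10), did not pass.

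**Figure D4:**
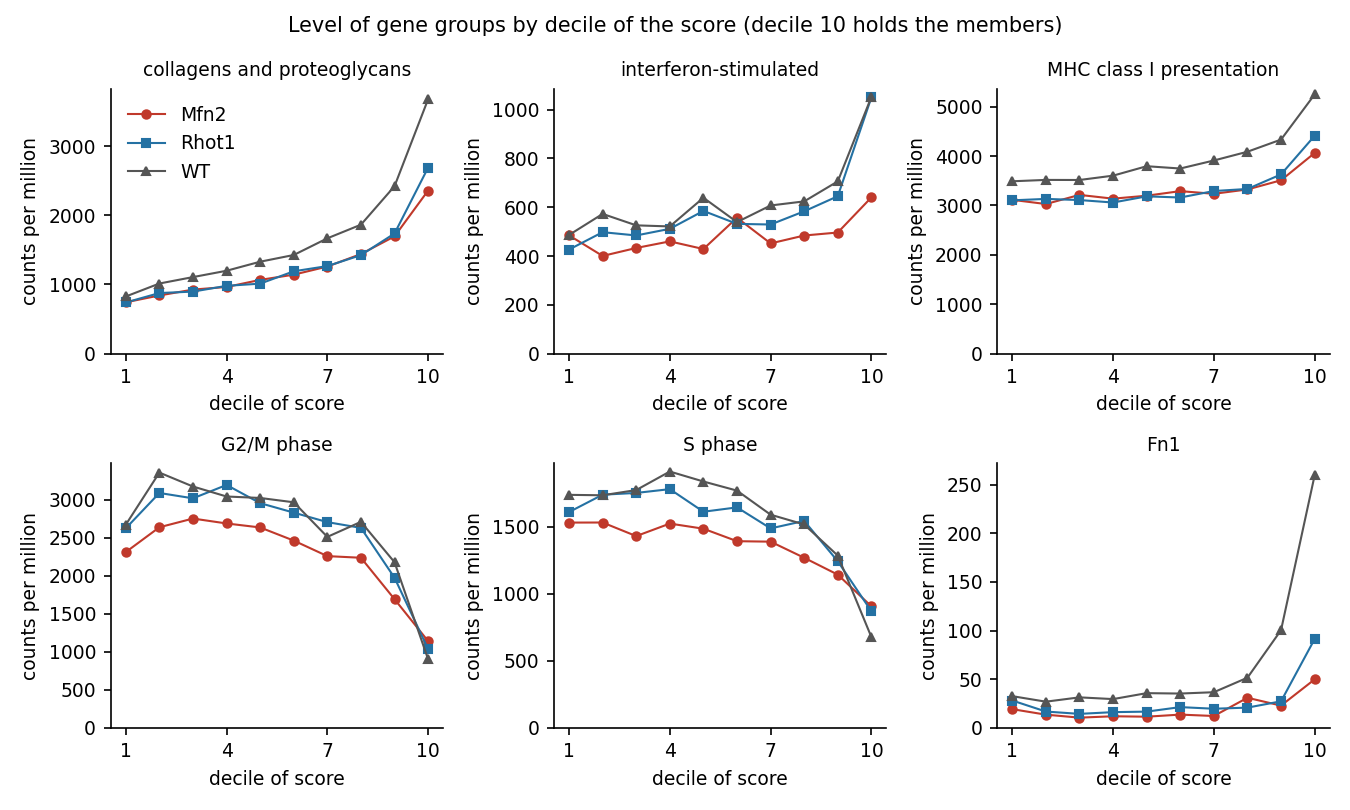
Summed CPM of 5 gene lists and CPM of Fn1 (vertical axes) by decile of the score over gated cells (decile 10 holds the members) in the Mfn2, Rhot1 and WT libraries. Collagen genes climb over the whole scale, Fn1 and the interferon list mostly in the top decile, and cell-cycle genes drop in deciles 9 and 10.

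The decile plot shows which groups followed the score over its whole length. Summed levels of the collagen list in deciles 1, 5 and 10 were 742, 1066 and 2359 CPM in the Mfn2 library. They were 739, 1012 and 2691 CPM in the Rhot1 library and 826, 1329 and 3681 CPM in the WT library. The interferon list had 485, 429 and 640 CPM in deciles 1, 5 and 10 of the Mfn2 library, 426, 585 and 1050 CPM in the Rhot1 library and 486, 639 and 1052 CPM in the WT library. Collagens thus climbed decile by decile in the plot, and the interferon list mainly in the last one. Deciles are cut from the score, and their order carries no test.

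Promoters of the groups that moved together are shown with short motifs found in them, as a description of sequence only. RefSeq promoters (GRCm38.p6), taken as the 250 bases before the start site, were searched on both strands. The core of the interferon-stimulated response element, written as GAAA and GAAA with any 2 bases between them, was in 7 of the 14 promoters found for the 16 interferon genes that rose and in 3.04% of all 27025 promoters. The cell-cycle homology region, TTTGAA, was in 8 of 20 promoters of the G2/M genes that fell (40.0%) and in 16.3% of all promoters, and GCGGGAA, an E2F-type site, was in 9 of 21 promoters of the S-phase genes that fell (42.9%) and in 3.84% of all. Of the 3 score-gene promoters found, none held the interferon element or the E2F-type site, Sema3a held TTTGAA, and Igfbp4 has the sequence TATAAA 28 bases before its start, which 13.0% of all promoters hold, and 5 promoters follow with the named motif in capitals: TATAAA in Igfbp4, which carried most of the score, the interferon element in Ifit1 and Isg15, and TTTGAA in Ube2c and Mki67, on either strand.
Igfbp4, chr11:99040994-99041243, forward strand: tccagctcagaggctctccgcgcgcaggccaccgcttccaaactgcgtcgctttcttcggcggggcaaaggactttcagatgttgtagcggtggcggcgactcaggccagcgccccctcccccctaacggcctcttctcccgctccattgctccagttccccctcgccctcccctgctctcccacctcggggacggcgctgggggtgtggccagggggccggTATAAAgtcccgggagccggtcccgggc
Ifit1, chr19:34640639-34640888, forward strand: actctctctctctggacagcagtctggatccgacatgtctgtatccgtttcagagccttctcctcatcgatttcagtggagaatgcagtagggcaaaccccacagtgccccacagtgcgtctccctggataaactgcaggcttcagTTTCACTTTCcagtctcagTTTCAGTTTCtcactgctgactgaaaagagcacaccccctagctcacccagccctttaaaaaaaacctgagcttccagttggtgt
Isg15, chr4:156200819-156201068, reverse strand: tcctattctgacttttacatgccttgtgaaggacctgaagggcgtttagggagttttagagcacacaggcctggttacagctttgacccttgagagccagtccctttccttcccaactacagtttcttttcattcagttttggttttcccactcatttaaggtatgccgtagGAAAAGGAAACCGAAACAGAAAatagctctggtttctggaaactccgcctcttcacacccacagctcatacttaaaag
Ube2c, chr2:164769679-164769928, forward strand: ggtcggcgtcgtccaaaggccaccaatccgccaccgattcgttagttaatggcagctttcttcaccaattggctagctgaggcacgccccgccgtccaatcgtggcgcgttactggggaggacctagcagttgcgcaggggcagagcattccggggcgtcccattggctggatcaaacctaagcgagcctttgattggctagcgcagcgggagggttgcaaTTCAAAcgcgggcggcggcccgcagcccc
Mki67, chr7:135716380-135716629, reverse strand: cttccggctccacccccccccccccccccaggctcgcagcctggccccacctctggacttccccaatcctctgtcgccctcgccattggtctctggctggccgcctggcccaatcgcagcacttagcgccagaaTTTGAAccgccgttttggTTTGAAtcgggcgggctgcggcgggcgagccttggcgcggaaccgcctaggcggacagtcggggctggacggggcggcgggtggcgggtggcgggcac

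The Ifit1 promoter held 2 matches and the Isg15 promoter 3 overlapping ones, the most upstream of them starting 104 and 78 bases before the start site. Ube2c had 1 match 29 bases before its start and Mki67 had 2. Isg15, a ubiquitin-like protein, had 20.9, 63.3 and 50.5 CPM in members and 19.8, 28.8 and 27.8 CPM in other gated cells (0.82 ± 0.17), nearly level in the Mfn2 library. Mki67, a protein of the surface of mitotic chromosomes, had 71.5, 73.8 and 71.9 CPM in members and 186, 231 and 227 CPM in other gated cells (-1.50 ± 0.08), with no overlap.

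Several signalling lists showed smaller or mixed shifts. Of 17 TGF-beta and BMP genes 7 rose and 1 fell (median 0.25): the procollagen protease Bmp1 had 65.2, 97.1 and 114.5 CPM in members and 43.9, 44.7 and 48.5 CPM in other gated cells (1.05 ± 0.12), the co-receptor Tgfbr3 rose by 1.02 ± 0.11 and the target Id2 fell by 0.54 ± 0.16. Of 9 Wnt genes 4 rose and none fell, led by the transcription factors Tcf7l2 (1.00 ± 0.10) and Tcf7l1 (0.84 ± 0.10). Of 19 genes listed as YAP and TEAD targets, 3 rose and 4 fell (median 0.04), with the angiomotin Amotl1 at 0.98 ± 0.13 and the Hippo scaffold Wwc1 at -1.08 ± 0.14. This list includes the factors Yap1, Wwtr1, Tead1 and Tead4 themselves, and its counts are near the shares of all genes. Of 14 genes of the unfolded protein response 4 rose and 2 fell (median 0.05), with Asns, asparagine synthetase, at -1.02 ± 0.10 and the stress factor Atf4 at -0.61 ± 0.08. Of 18 immediate early and dissociation stress genes 6 rose and 6 fell (median 0.10), with Atf3 lowest (-1.16 ± 0.09), and 5 of 16 NF-kB targets rose and 1 fell (median 0.17), against 0 higher and 3 lower in low-cycling cells (median -0.14). Of these the chemokine Ccl7 had 168, 138 and 123 CPM in members and 76.6, 73.7 and 67.9 CPM in other gated cells (1.02 ± 0.08), and the cytokine Il33 was at 1.04 ± 0.27, but at -0.50 when only the top 5% of the score was taken.

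Members of the 3 libraries also differed among themselves, and with 1 library per genotype these differences are given without a test. Genes at 50 CPM or more in 1 of the libraries compared were counted at a ratio of 1.5 or more. In members, 220 of 3121 genes (7.05%) were higher and 95 (3.04%) lower in the Mfn2 library than in the WT library, and 32 of 3007 genes (1.06%) were higher and 13 (0.432%) lower in the Rhot1 library than in the WT library. For Rhot1 these counts were 80 higher and 34 lower after thinning to 5000 UMIs, and 95 and 36 with Igfbp4 left out of the score. Both comparisons use the same WT members. The WT members scored higher, with median scores of 26.6, 29.7 and 34.5 in the Mfn2, Rhot1 and WT libraries, so ratios were also taken among members below the top 5% of the score, where the medians were 24.6, 24.5 and 25.4 (229, 182 and 246 cells).

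Members of the Mfn2 library had less fibronectin and more of several secreted factors than WT members. Fn1 had 49.8 CPM (95% Poisson interval 43.8 to 56.4) in Mfn2 members and 259.5 CPM (249 to 271) in WT members, a ratio of 0.192 (0.168 to 0.219), and 0.296 among members of matched score. Cp (0.272), Gadd45a (0.316), the collagen VI chain Col6a3 (0.376), Txnip (0.389) and Itm2b (0.443) were the next lowest. Fn1, Cp and Col6a3 were also lower in the other gated cells of the Mfn2 library, at ratios of 0.387, 0.268 and 0.410, while Gadd45a, Txnip and Itm2b were closer to WT there (0.760, 0.806 and 0.737).

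On the high side, Prxl2a, a peroxiredoxin-like protein, had 569 CPM (548 to 591) in Mfn2 members and 34.7 CPM (30.8 to 38.9) in WT members, a ratio of 16.4 (14.5 to 18.6), against 4.95 in other gated cells and 11.7 among members of matched score. Areg, an EGFR ligand, had 149 and 25.5 CPM in Mfn2 and WT members (5.86, and 1.44 in other gated cells), and Pthlh, the parathyroid hormone-like protein that drives bone resorption, had 155 and 31.8 CPM (4.86, and 1.58 in other gated cells). The retinol carrier Rbp4 (5.03), the protease inhibitor Slpi (4.56) and Odc1 (3.70) made up the rest. In other gated cells the ratios of Rbp4, Slpi and Odc1 were 1.93, 1.60 and 1.88, and whether the ratios differ between members and other gated cells was not tested. Of the UMIs of Areg in WT members, 19.2% came from 1 cell.

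In Rhot1 over WT members, Prxl2a was again the highest gene and Fn1 the lowest. Prxl2a had 190.3 CPM (178 to 203) in Rhot1 members against 34.7 CPM in WT members (ratio 5.48, 4.80 to 6.28), and the Wnt inhibitor Dkk2 had 186 CPM (174 to 198) against 69.5 CPM (2.67, 2.40 to 2.97). Odc1 (1.88), Rbp4 (1.75), the polyamine catabolic enzyme Sat1 (1.73) and Apobr (1.62) were the next highest, at ratios of 1.44 to 1.80 in other gated cells. Fn1 had 91.3 CPM (82.9 to 100.2) in Rhot1 members and 259.5 CPM in WT members (0.352, 0.316 to 0.390), followed by the ribosomal RNA-related Rn18s-rs5 (0.584), the immediate early gene Fos (0.589), Col6a2 (0.608), Col6a3 (0.637) and Mir6236 (0.672). These genes were also lower in the other gated cells of the Rhot1 library. The ratios there were 0.470 for Fn1, 0.728 for Rn18s-rs5, 0.554 for Fos, 0.638 for Col6a2, 0.497 for Col6a3 and 0.623 for Mir6236. Cxcl10 had 3.24, 20.6 and 23.6 CPM in members of the Mfn2, Rhot1 and WT libraries, and in each library 1 cell gave 31.3% or more of those UMIs.

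**Figure D5:**
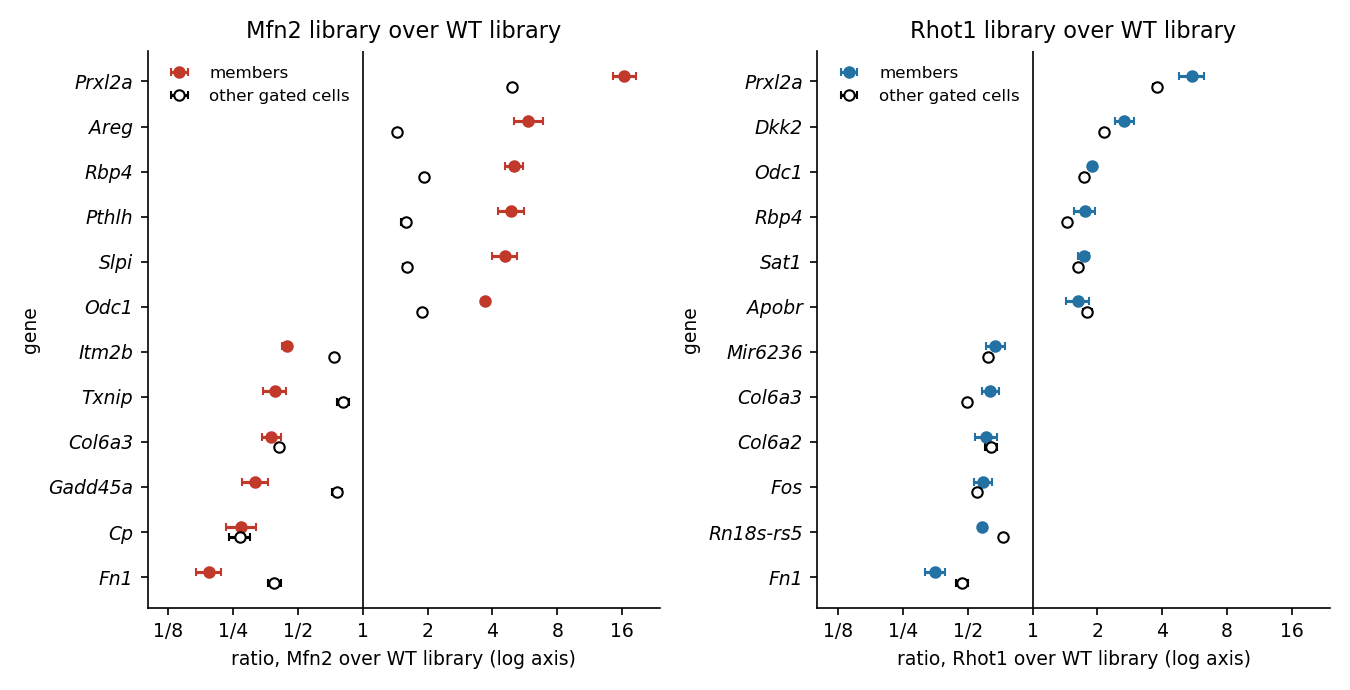
Ratio of CPM to the WT library (log axis) for the 6 highest and 6 lowest named genes, Mfn2 over WT (left) and Rhot1 over WT (right), in members (filled) and in other gated cells (open), with exact 95% counting intervals. Both panels share the WT members, and Prxl2a (16.4 and 5.48) and Fn1 (0.192 and 0.352) are at the ends.

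The collagen list had a median log2 ratio of -0.75 in Mfn2 over WT members (7 of 12 genes lower and 1 higher at 1.5-fold). In Rhot1 over WT members its median was -0.50 (4 of 12 lower), and the medians of all genes counted were 0.06 and 0.03. In other gated cells the collagen list was lower as well, with medians of -0.37 for Mfn2 over WT and -0.40 for Rhot1 over WT. Hypoxia genes had a median of 0.75 in Mfn2 over WT members (8 of 12 higher) and 0.29 in other gated cells, and MYC targets and ribosome biogenesis genes had 0.50 (8 of 18 higher) in members and -0.07 in other gated cells. The share of low-cycling cells and the score of the members moved with genotype too, and their part in these ratios was not tested. Mfn2 transcripts had 13.8, 19.3 and 13.9 CPM and Rhot1 transcripts 18.2, 24.4 and 19.9 CPM in members of the Mfn2, Rhot1 and WT libraries. A 3' tag count in tumour cells does not check a deletion made in osteocytes.

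Members overlapped with other tumour programmes to different degrees. Of members, 34.0%, 23.3% and 9.23% in the Mfn2, Rhot1 and WT libraries were in the top 10% of gated cells for the sum of Pthlh, Dkk2 and Etv1, against 9.47%, 11.7% and 3.58% of other gated cells. For hypoxia genes the shares were 15.1%, 4.96% and 3.60% of members and 13.9%, 7.77% and 8.69% of other gated cells. The share with high Pthlh, Dkk2 and Etv1 was above that of other gated cells in each library, and the hypoxia share was above it in the Mfn2 library and below it in the other 2.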

How the data were processed

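Single-cell UMI counts per gene and cell were deposited by the authors as filtered 10x matrices, 1 for each pooled library of 3 mice, which the file headers credit to Cell Ranger 7.0.0 and the submitters' processing notes to the build mm10. The sources used here name neither an annotation nor an intron setting. Per the labels' protocols, live cells were sorted by dye exclusion after collagenase digestion. The Mfn2, Rhot1 and WT libraries held 10016, 9534 and 9393 barcodes with 118123705, 118223251 and 112088653 UMIs (median 10860.5, 12024 and 9927 per barcode). They shared 20 to 35 barcode sequences pairwise, which were kept. Scrublet marked 308, 221 and 254 cells, which were kept in the main result.

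The members, gene lists and tests were chosen with earlier results of these data known. Raw counts were summed per library over members and over other gated cells, and the 6 sums were fitted with edgeR 4.0.16 (R 4.3.3, TMM, quasi-likelihood test, library as a block, Benjamini-Hochberg adjustment) over genes at a mean of 5 CPM or more; score and gate genes stayed in the totals and out of the test. The pairing comes from the cells: each library gave both sums. On simulated counts for this contrast (9709 genes), 73% of genes changed by 0.5 (log2) and 100% of those changed by 1 were recovered. Of 9509 unchanged genes, 10 were called. The simulation changed only 200 genes, drew each gene independently and did not select cells by a score, so these rates need not hold for the real contrast. Named genes were the 14 highest and 10 lowest called genes at 50 CPM or more, the 2 highest and 2 lowest of each list, and between genotypes the 6 highest and 6 lowest at 100 CPM or more, with Odc1, Prxl2a and Cxcl10; Isg15 and Mki67 were added after their values were seen. Genotypes have 1 library each, so ratios carry exact conditional intervals for counting error and no test. Alternatives included DESeq2 1.42.0, thinning to 5000 UMIs, other score limits and each library left out. Promoters came from RefSeq (GRCm38.p6).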

Additional observations from a re-analysis of the deposited data

Results flagged for a closer look

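Cells that the gate set aside because of Lum, Dcn and Mmp3 (10 or more UMIs of these per 10000, otherwise gated alike) also reached the score of the members, and at a higher rate than the gated cells. They numbered 748, 617 and 1335 in the Mfn2, Rhot1 and WT libraries, and 23.1%, 26.7% and 37.4% of them (173, 165 and 499 cells) scored at or above the limit, against 6.82%, 7.02% and 18.9% of gated cells and 0.803%, 0.789% and 4.10% of cells with 3 or more Ptprc UMIs. They stood out as a signal in cells that no comparison used. Their summed fibroblast markers were 2685, 3005 and 4305 CPM, against 1359, 1574 and 2145 CPM in members. These sums include Lum, Dcn and Mmp3, which the gate requires to be high in these cells and low in members. Dcn alone had 1553, 1490 and 2156 CPM in these cells and 285, 189 and 159 CPM in members. Lum had 190, 329 and 514 CPM in these cells and 23.1, 34.9 and 62.3 CPM in members. Mmp3 had 218, 248 and 283 CPM in these cells and 49.6, 31.5 and 40.3 CPM in members. Without these gate genes, what remained of each sum was lower in these cells than in members of the same library. The order of the sums thus follows from the gate and does not show these cells to be closer to fibroblasts. Whether these are tumour cells or stromal cells was not tested.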

How the results depend on the processing

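With each library left out in turn, the counts of called genes ran from 1212 to 2175 higher and from 1164 to 2193 lower, the lowest without Rhot1 and the highest without Mfn2. The top 10% within each library, which sets every share to 10% by construction, gave 1260 higher and 1002 lower, and testing all genes without a filter on low counts gave 2868 lower. Without the replicate block, that is without pairing the 2 sums of a library, 1634 genes were higher and 1566 lower; without TMM factors 1556 were higher and 2233 lower, so that 41.1% of calls were higher in place of 50.8%. After thinning, where ties at the limit gave 1527 members, the ratio of the members' share to WT was 0.437 for Mfn2 and 0.450 for Rhot1. It was 0.182 and 0.283 at the top 5%, and 0.584 and 0.546 at the top 20%. It was 0.294 for Mfn2 with the mean of log2 values and 0.457 for Rhot1 without Igfbp4 in the score, below 1 throughout. Between Rhot1 and WT members, 80 genes were higher and 34 lower after thinning, 95 and 36 without Igfbp4, 95 and 44 at 20 CPM or more, and 32 were lower at the top 20%, 32 among members of matched score (added after the data were seen) and 21 with TMM. Between Mfn2 and WT members, 445 were higher and 238 lower at 20 CPM or more. Over 142 named genes and all settings, 2589 of 2822 pairs of gene and setting kept their side of an adjusted p of 0.05, 128 lost it, 88 gained it and 17 changed sign with an adjusted p under 0.05 in 1 or both of the fits compared. The sign changes were Calr (-0.034) and Myh9 (0.17) without Igfbp4, Il33 (-0.50) at the top 5%, Pthlh (-0.34 without Mfn2, with 0.50 as the highest value, without WT), Tyrobp (0.11) with tumour markers at 3 UMIs or more, and, in low-cycling cells only (added after the data were seen), Cdkn2d (0.054), Col5a3 (-0.37), Dkk2 (-0.040), Egfl7 (-0.0042), Gpi1 (-0.25), H1f5 (0.00069), Il33 (-0.22), Mmp9 (-1.91), Pclaf (0.30), Pfkp (-0.24), Slbp (0.17) and Smc4 (0.37). The cause was not tested. With 1 library per genotype, no spread between mice enters the values between genotypes, and thinning moved the Rhot1 counts as given above.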
